A study of Mus musculus with 23 samples.

Results

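The genes described here carry out class I antigen processing. They are the peptide transporter subunits Tap1 and Tap2, the loading factor Tapbp (tapasin), the class I light chain B2m (beta-2 microglobulin), the immunoproteasome subunits Psmb8, Psmb9 and Psmb10, and the proteasome activator subunits Psme1 and Psme2. They were chosen by name, with earlier results of these data known, through probe sets annotated with a single gene symbol. Of the 9 genes, 8 were measured this way, among 18193 genes of the array. The only probe set for Psme2 was also annotated to a near copy, so Psme2 was not analysed. Each measured gene is given by its brightest probe set, and its other probe sets are described beside it.

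The lungs came from C57BL/6 (B6) and BALB/c (BALB) mice, male and female, that were CF-/- (CF, cystic fibrosis) or CF+/+ (controls). RNA of the whole right lung was measured on 23 arrays. Strain, sex and genotype gave 8 groups of 3 arrays, except that B6 CF males had 2. Neither the targeted allele nor the age of the mice is given in the sources used here, and whether the arrays within a group are separate animals is not stated. The p-values therefore cover only the spread seen among these arrays, part or all of which may be technical. All levels are log2 signals, a scale inferred from the values.

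Cells display fragments of their own proteins on MHC class I molecules for inspection by CD8 T cells. The proteasome cuts the proteins, the Tap1 and Tap2 transporter moves the peptides into the endoplasmic reticulum, tapasin tethers the transporter to empty class I molecules, and B2m pairs with every class I heavy chain. Interferons, interferon gamma above all, raise these genes. Psmb8, Psmb9 and Psmb10 then take the places of the constitutive catalytic subunits Psmb5, Psmb6 and Psmb7, and Psme1 with Psme2 forms a ring that caps the core particle. Leukocytes carry the immunoproteasome without such a signal.

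Several of the genes are neighbours in the MHC region. On chromosome 17 the protein-coding order is Psmb9, Tap1, Psmb8, Tap2, and Tapbp lies elsewhere on that chromosome. B2m is on chromosome 2 and Psmb10 on chromosome 8. Psme1 and Psme2 lie on either side of Emc9 on chromosome 14. Promoter windows from RefSeq (GRCm38.p6), which run from 250 bases before to 50 after a start site, were found for 8 of the 9 genes. The windows were searched on both strands for GAAANNGAAA, a core of the interferon-stimulated response element, and for TTCNNNGAA, a core of the gamma-activated site. The first is in 3.44% and the second in 8.3% of all 32851 windows. The first was found for B2m and Psme1 and the second for Psmb8, and the windows of the other 5 genes held neither. The stretches below are shown because the genes moved together. They give the 250 bases before the start sites of B2m and Psmb8, 30 bases around the Psme1 match, and the span between the Tap1 and Psmb9 start sites. Capitals mark a match, and the Tap1 and Psmb9 span has none.
B2m, chr2:122147437-122147686, plus strand: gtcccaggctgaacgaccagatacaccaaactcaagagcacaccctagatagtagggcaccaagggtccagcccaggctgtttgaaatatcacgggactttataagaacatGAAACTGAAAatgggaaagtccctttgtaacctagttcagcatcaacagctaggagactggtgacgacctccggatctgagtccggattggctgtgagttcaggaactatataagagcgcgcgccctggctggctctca
Psmb8, chr17:34197945-34198194, plus strand: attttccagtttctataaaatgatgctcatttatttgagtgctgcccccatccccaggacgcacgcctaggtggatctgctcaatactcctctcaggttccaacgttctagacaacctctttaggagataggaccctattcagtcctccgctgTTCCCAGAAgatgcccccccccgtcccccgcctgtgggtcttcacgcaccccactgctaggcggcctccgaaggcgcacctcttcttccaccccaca
Tap1 and Psmb9, chr17:34187331-34187555, plus strand: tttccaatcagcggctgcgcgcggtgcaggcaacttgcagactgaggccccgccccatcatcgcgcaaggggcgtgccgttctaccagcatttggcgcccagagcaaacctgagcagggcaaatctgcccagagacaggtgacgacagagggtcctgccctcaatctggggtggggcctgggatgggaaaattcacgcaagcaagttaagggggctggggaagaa
Psme1, chr14:55578493-55578522, plus strand: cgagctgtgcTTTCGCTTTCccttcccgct

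The B2m match began 139 bases upstream of its start site and the Psmb8 match 97 bases upstream. The Psme1 match, on the reverse strand, began at position 10 of the transcript. Tap1 and Psmb9 point away from each other, so the 225 bases printed for them lie upstream of both, and their full windows share 275 bases. A match is a description of these letters only.

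Array medians lay between 4.56 and 4.64, and arrays correlated at 0.971 to 0.996 with each other. Lung was evident on all arrays: the summed signal of the alveolar type 2 markers stayed between 14.88 and 15.12. Cftr separated the genotypes in BALB (3.49 to 4.42 in CF, 5.40 to 5.85 in controls) but overlapped in B6 (3.86 to 4.31 and 4.04 to 4.58), so it checks the labels in BALB only. On 9 arrays, markers of intestine, squamous epithelium or skeletal muscle reached a summed signal of 10. They include all 3 BALB CF females, where squamous markers summed to 10.84 to 13.52, against 7.37 to 7.68 on the other BALB arrays.

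**Figure D1:**
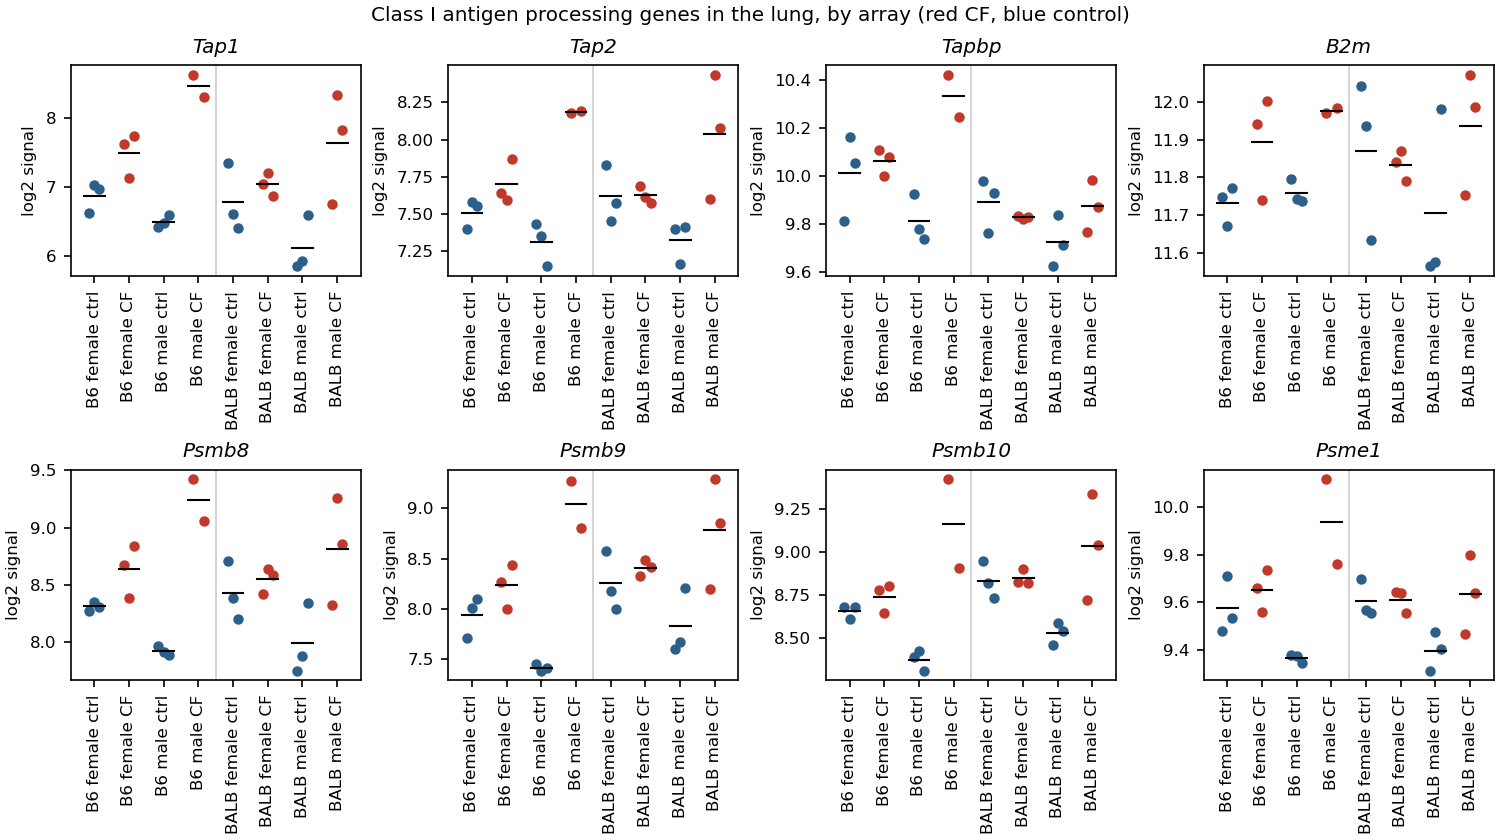
Log2 signal of each measured gene (y axes, a separate scale per gene) on all 23 arrays, by strain, sex and genotype; points are arrays and lines group means. B6 CF males have the highest mean for all 8 genes, and BALB CF males the next highest except for Tapbp and Psme1, with BALB CF male 1 below the other BALB CF males for each gene.

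Averaged over the sexes, the transporter genes rose in CF lungs of both strains, though neither passed in females of either strain alone. In B6, Tap1 read 7.62, 7.13 and 7.75 in CF females, against 6.63, 7.03 and 6.98 in control females. It read 8.62 and 8.30 in B6 CF males, against 6.43, 6.48 and 6.59 in control males. Every B6 CF array was thus above every B6 control array, and the CF males stood highest. Averaged over the sexes, Tap1 rose by 1.29 in B6 (SE 0.22, a 2.45-fold change, limma adjusted p = 0.00132).

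In BALB, Tap1 read 7.05, 7.20 and 6.87 in CF females and 7.35, 6.61 and 6.41 in control females. BALB CF males read 6.76, 8.34 and 7.83, and control males 5.85, 5.93 and 6.59. The female groups overlapped, while the male groups did not, with CF male 1 just above control male 3. The BALB rise was 0.88 (SE 0.21, 1.85-fold, adjusted p = 0.0148). In both strains the Tap1 call held with each of the 23 arrays left out in turn.

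Of the other Tap1 probe sets, a dimmer one (mean 4.18) also rose, by 0.42 in B6 (adjusted p = 0.0428) and 0.52 in BALB (adjusted p = 0.0074). The remaining pair read close to the bottom of the scale, at 2.84 and 2.41. The first of these rose by 0.20 in BALB (adjusted p = 0.0378), and neither passed in B6.

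Tap2, the partner of Tap1, moved less far. In B6 it read 7.64, 7.59 and 7.87 in CF females and 8.18 and 8.19 in CF males, and the 6 controls spanned 7.15 to 7.58 with a median of 7.41. All 5 CF arrays exceeded the controls, CF female 2 by the least. The rise was 0.53 (SE 0.11, 1.45-fold, adjusted p = 0.00625). In BALB the 6 CF arrays spanned 7.58 to 8.44 (median 7.65) and the controls 7.16 to 7.83 (median 7.43), so the groups overlapped. The rise of 0.36 was the weakest BALB call (SE 0.10, 1.28-fold, adjusted p = 0.0477), and 18 of the 23 fits that left out an array lost it.

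The immunoproteasome subunits rose together in B6. Psmb9, which replaces Psmb6, read 8.27, 8.0 and 8.43 in B6 CF females against 7.71, 8.01 and 8.10 in control females. In B6 males it read 9.27 and 8.81 against 7.45, 7.39 and 7.42. The male groups stood well apart, and the female groups overlapped. Psmb9 rose by 0.96 in B6 (SE 0.16, 1.94-fold, adjusted p = 0.00115). In BALB the 6 CF arrays spanned 8.20 to 9.29 (median 8.45) and the controls 7.61 to 8.58 (median 8.09). They overlapped, with a rise of 0.55 (SE 0.15, 1.47-fold, adjusted p = 0.0353).

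Psmb8, which replaces Psmb5, read 8.67, 8.39 and 8.84 in B6 CF females and 9.42 and 9.06 in CF males. The 6 B6 controls spanned 7.89 to 8.35 with a median of 8.12. No CF array fell within the control range. The rise was 0.82 in B6 (SE 0.14, 1.76-fold, adjusted p = 0.00128) and 0.47 in BALB (SE 0.13, 1.38-fold, adjusted p = 0.0394), where 8.33 to 9.26 in CF overlapped 7.75 to 8.71 in controls. A dimmer Psmb8 probe set rose by 0.34 in B6 (adjusted p = 0.0195) and differed by 0.10 in BALB (adjusted p = 0.529).

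Psmb10, which replaces Psmb7, read 8.78, 8.65 and 8.80 in B6 CF females and 9.43 and 8.91 in CF males. The B6 controls spanned 8.31 to 8.69 with a median of 8.52. CF female 2 lay within the control range and the other CF arrays above it. The rise was 0.44 (SE 0.09, 1.35-fold, adjusted p = 0.00794). In BALB the difference was 0.26 (SE 0.09, adjusted p = 0.0921), which did not pass.

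Psme1, a subunit of the proteasome activator, read 9.66, 9.56 and 9.74 in B6 CF females and 10.12 and 9.76 in CF males, against controls of 9.34 to 9.71 (median 9.43). The groups overlapped, and the rise was 0.33 (SE 0.07, 1.25-fold, adjusted p = 0.0111). In BALB it differed by 0.12 (SE 0.07, 95% interval -0.02 to 0.26, adjusted p = 0.371).

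Tapbp read 10.11 and 10.08 in B6 CF females 1 and 3, slightly less in CF female 2, and 10.42 and 10.24 in CF males, against controls of 9.74 to 10.16 (median 9.87). The females overlapped and the males did not. Tapbp rose by 0.29 in B6 (SE 0.07, 1.22-fold, adjusted p = 0.0219) and differed by 0.04 in BALB (SE 0.07, interval -0.09 to 0.18, adjusted p = 0.815). Its dimmer probe set gave 0.26 in B6 (adjusted p = 0.116) and 0.24 in BALB (adjusted p = 0.11), neither past the threshold. In BALB the Tapbp probe sets thus gave unlike values, and the difference between them was not tested.

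B2m passed in neither strain. It read 11.94, 11.74 and 12.00 in B6 CF females and 11.97 and 11.98 in CF males, and the controls spanned 11.67 to 11.80. CF female 2 lay among the controls and the other 4 CF arrays above them. The difference was 0.19 in B6 (SE 0.09, interval 0.01 to 0.37, adjusted p = 0.241) and 0.10 in BALB (SE 0.08, interval -0.07 to 0.26, adjusted p = 0.592). A further B2m probe set gave 0.19 and 0.15, also without passing.

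In all, 7 of the 8 genes rose in B6 CF lungs and none fell, with a median difference of 0.49. Of all probe sets, 4.71% passed in that comparison and 2.72% passed upward, and their median was near 0. In BALB 4 of 8 rose and none fell, with a median of 0.31, where 4.92% of all probe sets passed and 2.6% passed upward. The genes were chosen with earlier results known, so setting these shares beside the counts is a description only. CF and control arrays did not overlap for Tap1, Tap2 and Psmb8 in B6 (1.3% of all probe sets were higher without overlap) and for none of the 8 in BALB (1.05%). Without B6 CF male 1 the B6 count was 4, as Tapbp, Psmb10 and Psme1 no longer passed. In BALB the count was 1, Tap1, without any of 8 single arrays: control males 1 and 2, CF males 2 and 3, CF females 2 and 3, and control females 2 and 3. It was 5 without CF male 1, and it was 0 when BALB was fitted alone. Over all probe sets, the fits that left out an array called 852 to 2329 in B6 and 1368 to 2851 in BALB.

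The CF effect was smaller in BALB than in B6 for each of the 8 genes, by 0.09 (B2m) to 0.41 (Tap1), but none of these differences passed (2.54% of all probe sets did). The nearest was Tapbp, whose effect was lower by 0.24 (SE 0.10, interval -0.44 to -0.04, adjusted p = 0.21). For Tap1 the interval ran from -1.03 to 0.22. For Psmb9 it ran from -0.86 to 0.05. All of these values are of the brightest probe sets. At the dimmer Tap1 probe set of mean 4.18 the rise was larger in BALB than in B6. The dimmer Tapbp probe set gave nearly equal differences in the strains. Those of Psmb8 and B2m gave smaller differences in BALB.

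Control lungs of the strains did not differ in any of the 8 genes by this test, where 15.6% of all probe sets did. Psmb9 had the largest control difference, 0.36 higher in BALB (SE 0.15, adjusted p = 0.116). Among CF lungs, Tap1 was 0.64 lower in BALB than in B6 (SE 0.22, adjusted p = 0.0462) and Tapbp 0.35 lower (SE 0.07, adjusted p = 0.00106), 2 of 8 genes where 18.2% of all probe sets passed. The Tap1 call was lost in 15 of the 23 fits that each left out 1 array, with adjusted p up to 0.179. The dimmer Tap1 probe set of mean 4.18 was not lower in BALB. Its mean over arrays was 4.45 in BALB CF and 4.37 in B6 CF. Tapbp was the only one of the 8 without overlap between these groups, with BALB CF arrays at 9.77 to 9.98 and every B6 CF array above them (5.53% of all probe sets were lower without overlap). The other probe set of Tapbp overlapped, at 8.29 to 8.69 in BALB CF and 8.43 to 8.87 in B6 CF, and did not pass (-0.14, SE 0.09, adjusted p = 0.316). Whether the probes match both strains' sequences equally was not tested.

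The genes passed the threshold in males. Of the 8 genes, 7 rose in B6 males (6.24% of all probe sets passed, 3.61% upward) and none passed in B6 females (0.815%). In BALB males 5 rose, namely Tap1, Tap2, Psmb8, Psmb9 and Psmb10 (1.93% passed, 1.26% upward), and none passed in BALB females (1.19%). CF and control arrays did not overlap for 8 of 8 genes in B6 males (18.1% of all probe sets were higher without overlap) and for Tap1, Tap2 and Psmb10 in BALB males (9.15%). In B6 females they did not overlap for Tap1, Tap2 and Psmb8 (7.72% of all probe sets), and in BALB females they overlapped for all 8 genes (8.11%). These counts are of the brightest probe sets. The dimmer Tap1 probe sets of mean 4.18 and 2.84 did not overlap in BALB females. They read 4.35 to 4.55 in CF against 3.85 to 4.14 in controls, and 2.95 to 3.08 against 2.65 to 2.85. All other dimmer probe sets of the genes overlapped there. The median difference was 0.83 in B6 males and 0.18 in B6 females. It was 0.61 in BALB males and 0.01 in BALB females. In BALB CF lungs, sex cannot be told apart from the squamous signal, which was high in every female and in no male.

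Tap1 rose by 1.96 in B6 males (SE 0.33, 3.9-fold, adjusted p = 0.000946) and by 1.52 in BALB males (SE 0.29, 2.86-fold, adjusted p = 0.00748). In females the Tap1 difference was 0.62 in B6 (SE 0.29, interval 0.02 to 1.23) and 0.25 in BALB (SE 0.29, interval -0.36 to 0.86). Psmb9 rose by 1.62 in B6 males (SE 0.24, 3.07-fold, adjusted p = 0.00036) and by 0.95 in BALB males (SE 0.21, 1.93-fold, adjusted p = 0.0195). The female intervals for Tap1 reach differences of more than 2-fold in B6, so the lack of a call there does not show an unchanged level.

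**Figure D2:**
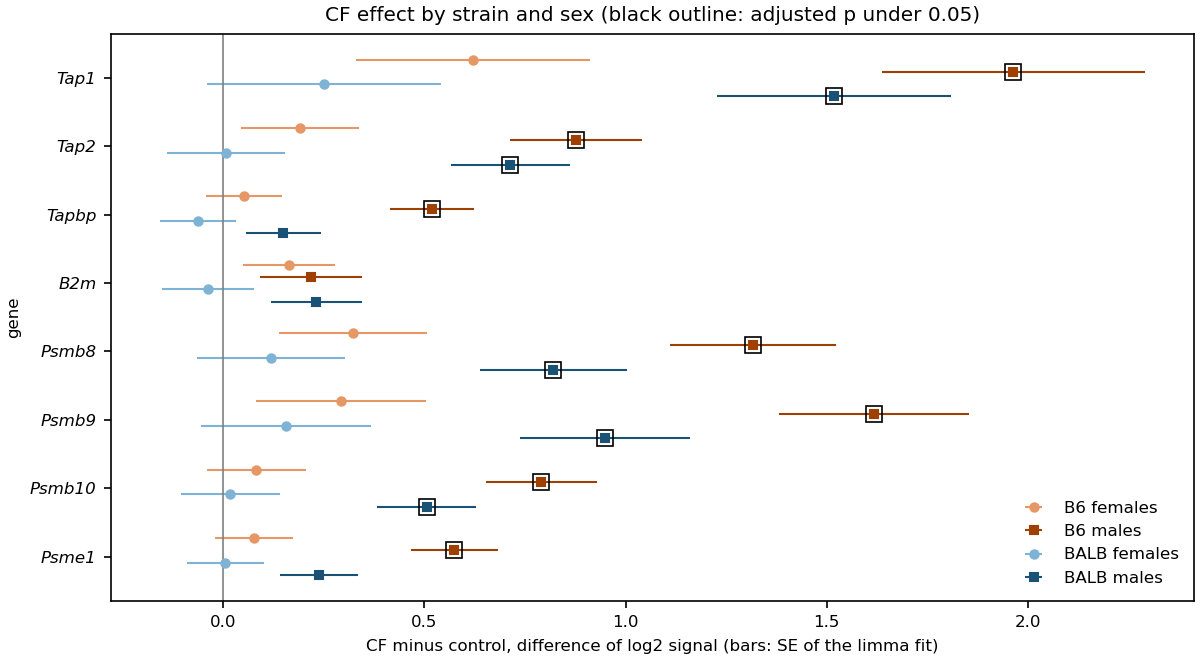
CF minus control (x axis, difference of log2 signal) for each gene, by strain and sex; bars are the SE of the limma fit and black outlines mark adjusted p under 0.05. Males lie to the right of females of the same strain for all 8 genes.

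Tested directly, the female effect minus the male effect was negative for all 8 genes in both strains. It passed for 1 of them, Psmb9 in B6, at -1.32 (SE 0.32, interval -1.98 to -0.66, adjusted p = 0.0356), where 1.75% of all probe sets passed. Psmb10 (-0.71, adjusted p = 0.0545) and Psmb8 (-0.99, adjusted p = 0.0694) came next in B6. In BALB the difference was -1.27 for Tap1 (SE 0.41, adjusted p = 0.334), and none passed (0.0178% of all probe sets did). The Psmb9 call was lost in 8 of the 23 fits that left out an array, those without B6 CF male 1, CF females 1 or 2, control females 2 or 3, or any B6 control male. Without BALB CF male 1, 5 genes passed in B6 and 2 in BALB. Over all probe sets, the fits that left out an array called 245 to 1183 in B6 and 0 to 100 in BALB.

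Control females read higher than control males in all 8 genes, by a median of 0.27, though none passed (2.43% of all probe sets did). Psmb10 (0.29, SE 0.09, adjusted p = 0.0792) and Psmb8 (0.41, SE 0.13, adjusted p = 0.0963) were nearest. The sex difference of the CF effect is taken over these baselines, whose own difference did not pass.

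For Tap1 the group means ran from B6 CF males (8.46), BALB CF males (7.64), B6 CF females (7.50) and BALB CF females (7.04) to B6 control females (6.88), BALB control females (6.79), B6 control males (6.50) and BALB control males (6.13). Every neighbouring pair in that order overlapped in its arrays. B6 CF males had the highest mean for all 8 genes. They stood clear of the next group, B6 CF females, for Tapbp and Psme1. A control male group had the lowest mean for each gene.

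The BALB males differed among themselves. CF male 1 was the lowest of the 3 BALB CF males in all 8 genes, as with Psmb9 at 8.20 against 9.29 and 8.85. Control male 3 was the highest of the control males for Tap1, Tap2, B2m, Psmb8 and Psmb9, the last at 8.21 against 7.61 and 7.67. It also had the highest summed T cell markers of the BALB controls, 9.12 against 8.15 to 8.67. Its part in the result was not tested.

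The constitutive subunits that the immunoproteasome subunits replace did not pass in either strain. Psmb5, Psmb6 and Psmb7 differed by -0.01, -0.01 and -0.05 in B6 and by -0.01, -0.02 and 0.00 in BALB, with SEs of 0.06 to 0.07. The ratio of each immunoproteasome subunit to its counterpart was taken within each array, so that scaling between arrays cancels. In B6, Psmb9 over Psmb6 rose by 0.97 (log2; exact two-sided permutation of genotype within sex, p = 0.01, adjusted p = 0.03 over 6 tests, n = 5 and 6). Psmb8 over Psmb5 rose by 0.83 (exact p = 0.015, adjusted p = 0.03) and Psmb10 over Psmb7 by 0.49 (exact p = 0.005, the smallest possible, adjusted p = 0.03). Among B6 females, CF and control arrays overlapped for the Psmb9 and Psmb8 ratios but not for the Psmb10 ratio. Among B6 males they overlapped for none of the ratios. In BALB the differences were 0.57, 0.48 and 0.27 (exact adjusted p = 0.06, 0.072 and 0.095, n = 6 and 6), and none passed. The members were chosen with results known, and a ratio shows unequal change only. The constitutive subunits differed little, so the ratios largely repeat the differences given above for the immunoproteasome subunits and are no separate support.

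**Figure D3:**
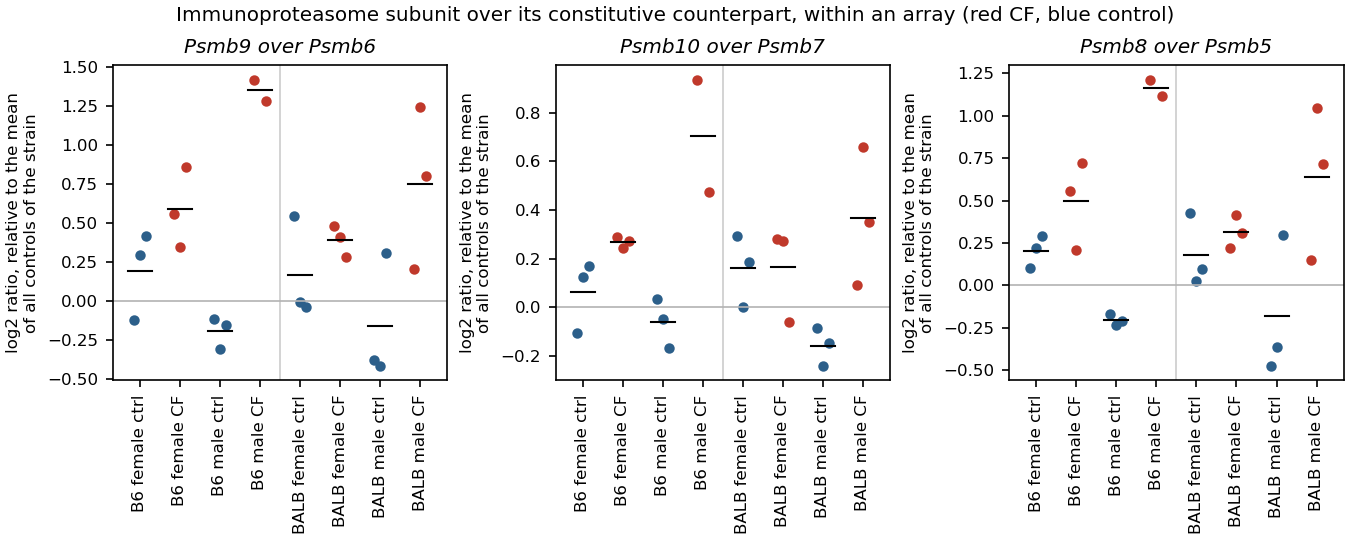
Immunoproteasome subunit over its constitutive counterpart (y axes, log2 ratio within an array, set to 0 at the mean of all controls of the strain), by group; points are arrays and lines group means. The ratios are highest in CF males of B6, and BALB CF male 1 lies below the other BALB CF males in all 3 ratios.

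The rest of the proteasome showed few changes. Of the 11 other subunits of the core particle, 1 rose in B6, Psmb2 (0.21, adjusted p = 0.0499), and none in BALB. None of the 17 regulatory cap subunits passed in either strain, and the list medians were -0.01 in B6 and -0.06 in BALB. Of 6 other activators and assembly factors, Psmf1, a proteasome inhibitor, rose in B6 (0.23, adjusted p = 0.0409) and none in BALB.

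Peptide loading genes went in both directions in B6. Tapbpl, a tapasin relative that edits peptides, rose by 0.24 (adjusted p = 0.0365), while the chaperones Hspa5 and Canx fell by 0.54 (adjusted p = 0.00698) and 0.23 (adjusted p = 0.0455). These were the 3 of 7 measured genes that passed, and none passed in BALB. Erap1, which trims peptides to length, differed by 0.14 in B6 and 0.18 in BALB without passing.

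Of the class I heavy chains and related genes, 10 of 20 had a probe set of a single symbol. In B6, 4 rose and none fell: H2-M3, which presents formylated peptides (0.57, adjusted p = 0.000543), H2-Q10 (0.67), H2-Q5 (1.01) and the classical H2-K1 (0.43, adjusted p = 0.0302). In BALB H2-M3 (0.37, adjusted p = 0.0116) and Mr1 (0.28, adjusted p = 0.0388) rose. H2-D1, the other classical gene, differed by 0.23 and 0.21 and did not pass. Heavy chain genes are close copies, so a probe set may read several of them and alleles that differ between the strains.

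**Figure D4:**
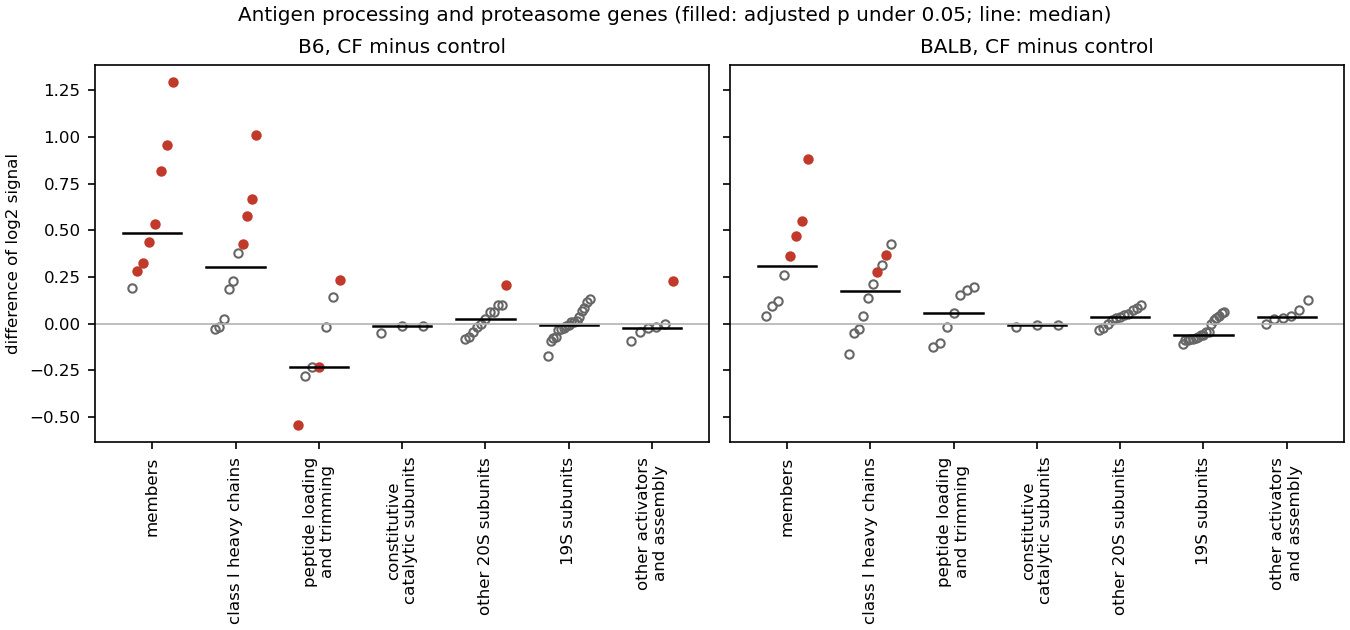
CF minus control (y axis, difference of log2 signal) in B6 and BALB for the antigen processing genes (members) and related gene lists; points are genes, filled where adjusted p is under 0.05, and lines are list medians. The members' median is 0.49 in B6 and 0.31 in BALB, and the proteasome lists lie around 0.

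Among genes of the interferon gamma pathway, Nlrc5, the transactivator of class I genes, rose by 1.36 in B6 (SE 0.33, adjusted p = 0.0187) and by 1.38 in BALB (SE 0.31, adjusted p = 0.0116). It rose by 1.99 in B6 males and 2.47 in BALB males and differed by 0.73 and 0.28 in females (adjusted p = 0.658 and 0.815). The female minus male difference of its CF effect, -1.26 in B6 and -2.19 in BALB, did not pass (adjusted p = 0.403 and 0.277). Irf8 rose in both strains (0.50 and 0.48), and Socs1 and Ciita rose in BALB (0.45 and 0.75). That makes 2 of 11 measured genes in B6 and 4 of 11 in BALB. Ifng itself read near the bottom of the scale, 3.06 to 3.93 in B6 CF and 3.03 to 3.26 in B6 controls, and did not pass (0.37, adjusted p = 0.0578). Irf1, an activator of these genes, differed by 0.35 in B6 and 0.39 in BALB (adjusted p = 0.183 and 0.108).

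In the interferon alpha and beta list, 4 of 12 measured genes rose in B6: Irf7 (0.66), Ifit3 (0.31), Oas1a (0.50) and Irf9 (0.35). In BALB 3 of 12 rose: Ifit3 (0.64), Irf7 (0.47) and Usp18 (0.36). No gene of either interferon list fell in either strain.

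The members tracked each other across arrays. After subtraction of each strain's mean, the correlation of a gene with the mean of the other members over the 23 arrays was highest for Psmb9 (r = 0.99), Psmb8 (0.99) and Tap1 (0.98), and lowest for Tapbp (0.81) and B2m (0.76). Of 18185 other genes, those most like the members' mean were H2-M3 (r = 0.97), Zbp1, a sensor of nucleic acids in the Z form (0.97), Oasl2 (0.95), Irf7 (0.94) and Nlrc5 (0.94). These correlations share the group structure and the arrays and are descriptions only. Taken within the 8 groups they were 0.91 for H2-M3, 0.93 for Zbp1, 0.84 for Oasl2, 0.74 for Irf7 and 0.91 for Nlrc5.

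Leukocyte markers were higher in the same CF lungs. All 6 rose in B6 and 5 of 6 in BALB, with medians of 0.52 and 0.73. T cell markers rose in 9 of 10 and 5 of 10, among them Cd3g (1.45 and 0.95). Markers of natural killer and cytotoxic cells rose in 5 of 8 and 2 of 8. Nkg7, of cytotoxic granules, rose by 1.86 in B6 (adjusted p = 1.92e-05) and differed by 0.58 in BALB without passing (limma adjusted p = 0.0795). The BALB minus B6 difference of its CF effect was -1.28 and passed (limma adjusted p = 0.0154). Of the markers of monocytes and interstitial macrophages, 5 of 6 rose in B6, among them C1qa (0.79) and Cx3cr1 (0.85), and 2 of 6 in BALB. Their summed signal was 10.84 to 11.37 in B6 CF and 10.50 to 10.74 in B6 controls, and 10.65 to 10.97 in BALB CF and 10.37 to 10.64 in BALB controls. Neutrophil markers rose in 4 of 6 in each strain, S100a9 by 1.06 in B6 and 1.77 in BALB. B cell markers rose in 0 of 6 in B6 and 5 of 6 in BALB. Plasma cell markers rose in 3 of 5 in each strain, among them Igha (1.18 and 1.16) and Jchain (1.41 and 1.21), while Xbp1 fell by 0.33 in B6. Of the alveolar macrophage markers, 1 of 7 rose in B6 (Marco, 0.83) and 0 of 7 in BALB. Dendritic cell markers went in both directions in B6. Cd209a fell by 1.22 (adjusted p = 6.74e-05) and Ccr7 rose by 0.64 (adjusted p = 0.0281). The summed dendritic signal was 7.58 to 7.91 in B6 CF and 7.76 to 8.19 in B6 controls. In BALB it was 7.59 to 7.78 in CF and 7.36 to 7.65 in controls. The summed leukocyte signal was 11.48 to 12.26 in B6 CF and 11.05 to 11.68 in B6 controls, and 11.40 to 11.81 in BALB CF and 10.48 to 11.16 in BALB controls. In whole lung RNA, more cells of a type and more RNA of these genes per cell cannot be told apart.

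In BALB CF females the summed leukocyte signal was 11.59 to 11.81, above 11.00 to 11.16 in control females. Tap1 differed there by 0.25 (95% interval -0.36 to 0.86). The 3 BALB CF males lay within 11.40 to 11.43 for leukocytes and at 6.76 to 8.34 for Tap1. The part of any marker list in the members' differences was not tested. With the mean leukocyte level as a covariate, an alternative added after the data were seen, none of the 8 passed in either strain. Over all probe sets that fit called 45 in B6 and 9 in BALB, against 2121 and 2217 without the covariate. Tap1 then differed by 0.86 in B6 and 0.40 in BALB (adjusted p = 0.46 and 0.829). The leukocyte level itself went with genotype, without overlap in BALB. The covariate fit therefore cannot separate leukocyte level from genotype.

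**Figure D5:**
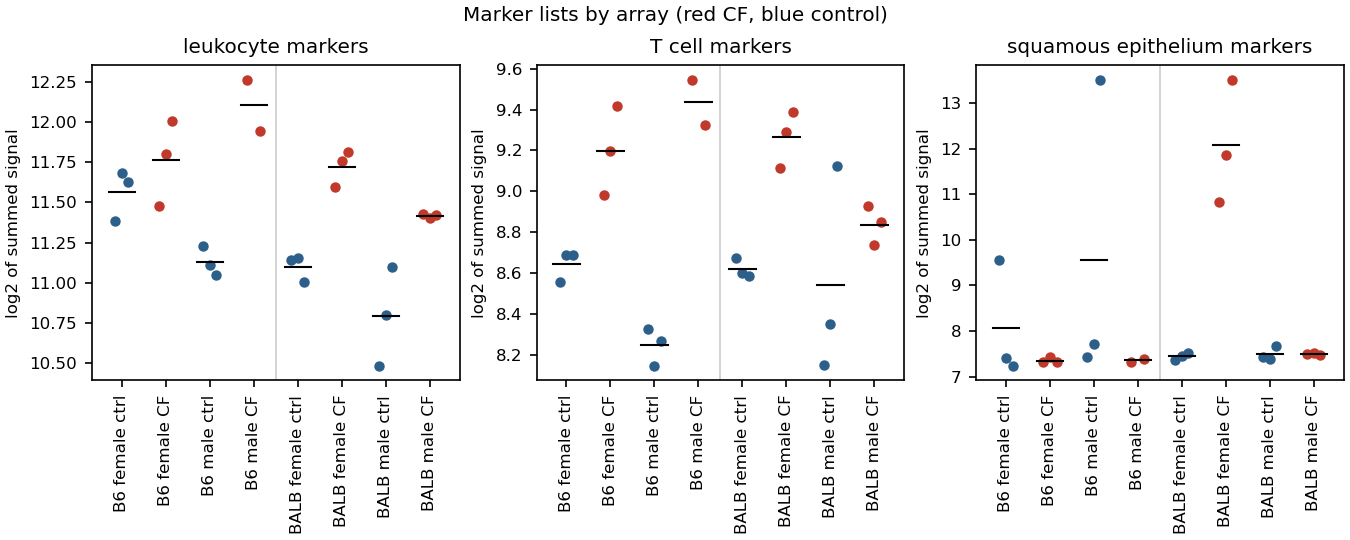
Summed signal of leukocyte, T cell and squamous epithelium markers (y axes, log2), by group; points are arrays and lines group means. The mean of the leukocyte markers is higher in CF in each strain and sex. Squamous markers are highest in B6 control male 3 and the 3 BALB CF females, followed by B6 control female 1 at 9.56.

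Signal from other tissues also differed between the BALB genotypes averaged over the sexes: 2 of 7 squamous markers were higher and 3 of 7 intestinal markers lower in CF. Within BALB, the summed squamous signal was high in CF females only, at 10.84 to 13.52, with CF males at 7.47 to 7.52. Without the 9 arrays that reached a summed signal of 10 for such markers, which removes every BALB CF female, Tap1 rose by 1.25 in B6 (adjusted p = 0.00236) and 5 of the 8 genes passed, since the calls of Tapbp and Psme1 were lost and B2m had not passed with all arrays. In B6 males 7 of 8 still passed, and Tap1 rose by 2.01 (adjusted p = 0.00153). In BALB males, with 2 arrays left in each group, Tap1 differed by 1.03 (adjusted p = 0.128) and none passed. Numbers called over all probe sets without the 9 arrays are not given here, so these counts do not single out the genes. With scores of these tissues as covariates, none of the 8 passed in BALB. Over all probe sets 39 did, and Tap1 differed by 0.69 (adjusted p = 0.699).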

How the data were processed

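Biotin-labelled total RNA was measured on an Affymetrix mouse array, as its probe set names show. The deposited table holds log2 signals of 45101 probe sets, a scale inferred from the values (1.79 to 13.82). How probes were summarised and normalized is not given in the sources used here. Of these, 64 array controls were left out, which leaves 45037, of which 34945 have 1 symbol in the platform annotation. All groups were fitted as 8 means with limma 3.58.1 (R 4.3.3; 15 residual and 5.81 prior degrees of freedom), with 12 comparisons, two-sided, Benjamini-Hochberg adjusted over all probe sets at 0.05. A strain's CF effect is the mean over sexes. The number of arrays limits the precision. The brightest single-symbol probe set stood for a gene. All 9 genes are described, with up to 4 genes of lowest p per list, the 5 genes most alike, and the regulators and constitutive subunits. The genes and lists were chosen with earlier results of these data known. Alternatives covered scaling, filtering, spread, weights, covariates, probe sets, blocks and left-out arrays; the leukocyte covariate, the removal of arrays with other tissue and the exact subunit ratio tests were added after the data were seen.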

Additional observations from a re-analysis of the deposited data

Results flagged for a closer look

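B2m in B6 CF lungs had a low array: CF female 2 read 11.74, the next array 11.94, and the gap was 0.77 of the group's range of 5 arrays. Chance alone marks about 1 in 20 groups this way. The same array was the lowest of the B6 CF arrays for Tap1 (7.13), Tap2, Tapbp, Psmb8, Psmb9, Psmb10 and Psme1.

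The CF effect on Psmb9 differed between the sexes of B6 by -1.32, the female minus the male effect, by the interaction term of the limma fit (adjusted p = 0.0356). The male effect was 1.62 and the female effect 0.29.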

How the results depend on the processing

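No result changed direction while past the threshold. The counts below are of the 8 measured genes past the threshold. For the CF effect in BALB (4), the count was 2 with each array centred on its own median, 2 with an intensity trend and robust spread, 0 with BALB fitted alone, and 0 with the tissue or the leukocyte covariates. The CF effect in B6 (7) gave 0 only with the leukocyte covariate among the alternatives other than left-out arrays. In B6 males (7) that covariate also gave 0. In BALB males (5), BALB fitted alone gave 1, and the tissue covariates, the leukocyte covariate and the removal of arrays with other tissue gave 0. For BALB minus B6 among CF lungs (2), quantile normalization, the trend and robust spread, array weights, the replicate block and the mean of all probe sets gave 1, and both kinds of covariate gave 0. Among controls (0) the leukocyte covariate gave 1. The sex difference of the effect in B6 (1) gave 2 without dim probe sets, 2 with the trend and robust spread, 5 with array weights, 4 with B6 fitted alone and 0 with the leukocyte covariate. Control females minus males (0) gave 6 with array weights. The cause was not tested, except that a covariate tied to genotype leaves fewer calls over all probe sets. Numbers called over all probe sets under most of these settings are not given here, so the counts do not single out these genes.

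With each array left out in turn, the counts ranged from 4 to 7 for B6, 1 to 5 for BALB, 4 to 7 for B6 males (4 without CF male 1), and 1 to 5 for BALB males (1 without control male 1 or 2, or CF male 2 or 3). They ranged from 0 to 5 for the sex difference in B6, 0 to 2 for that in BALB, 0 to 3 for control females minus males, 1 to 2 for BALB minus B6 CF lungs, and 0 to 1 for controls. They stayed at 0 for females of either strain and for the strain difference. Over all probe sets the same fits called 852 to 2329 for B6 and 1368 to 2851 for BALB. For males they called 760 to 3113 in B6 and 323 to 1060 in BALB. For the sex difference they called 245 to 1183 in B6 and 0 to 100 in BALB. Control females minus males gave 477 to 1772, BALB minus B6 CF lungs 6220 to 8486, and controls 5898 to 7309. Females gave 84 to 747 in B6 and 39 to 1414 in BALB, and the strain difference 591 to 1568.

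Replicate numbers did not pair the samples: none of 11 correlations between same-numbered arrays was over 0.1 (-0.17 to 0.07). With the replicate block Tap1 rose by 1.31 in B6 (adjusted p = 0.00214), and 3 genes passed in BALB, Tap2 losing its call (adjusted p = 0.063).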
